A study of Mus musculus with 6 samples.

Results

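The genes described here are regulators of pre-mRNA splicing, whose RNA was sequenced from cultured primary tubular epithelial cells of the mouse kidney. They were chosen by symbol from the protein-coding genes of GENCODE M21, with earlier results of these data known. Included were every gene whose symbol begins with Hnrnp and the numbered Srsf, Ptbp, Esrp, Mbnl, Celf, Rbfox and Nova genes. Qk, Tra2a, Tra2b, U2af1, U2af2 and Rbm47 were included as well. There were 56 such genes among the 48526 genes of the count tables, and 53 had enough counts to be tested. The cells were grown from digested kidney cortex of mice aged 4 to 5 weeks, in a medium with 20 ng/ml EGF and 100 nM hydrocortisone, and no step selecting tubular cells is described in the labels. One group of 3 libraries came from Setd2(F/F)Ksp-Cre+ mice, labelled SETD2-deficient and called KO here, and the other group of 3 came from Setd2(F/F) littermates, labelled SETD2-proficient and called WT. Both groups carried the floxed Setd2 alleles, and Ksp-Cre is a Cre recombinase under the promoter of Cdh16, a cadherin gene of tubule epithelium. All KO libraries and no WT library had Cre, so an effect of Cre and an effect of the Setd2 deletion cannot be told apart. The labels do not say whether replicates were separate animals, so p-values measure the spread between these libraries only.

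Splicing regulators are RNA-binding proteins that decide which splice sites the spliceosome uses. SR proteins mostly bind exonic enhancers and promote inclusion of the exon, and hnRNP proteins often bind silencers and oppose it, although both can act either way depending on where they bind. PTBP, ESRP, MBNL, CELF, RBFOX, NOVA and QKI proteins add cell type programmes, of which the ESRP programme is epithelial and the NOVA programme neuronal. SETD2 writes trimethylation of histone H3 lysine 36 over transcribed gene bodies. That mark has been linked to splice site choice through reader proteins that recruit splicing factors, and the hnRNP L protein is a known partner of SETD2. Gene counts show how much RNA of each regulator was present, not how any transcript was spliced.

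Of the 53 tested regulators, 12 passed the threshold of an adjusted p below 0.05 in edgeR's quasi-likelihood test, 8 of them lower and 4 higher in KO. This is 22.6% of the regulators, beside 21% of all 17571 tested genes, so the share of regulators called was close to that of genes at large. Of the 14141 tested protein-coding genes, 24.1% were called, 13.9% higher and 10.1% lower. Lower calls made up 8 of 53 regulators against 9.08% of all genes, and higher calls 4 of 53 against 12%. Regulators are mostly abundant, and abundant genes leaned the same way: of the 9039 tested genes with a mean of at least 10 CPM, 13% were lower, 10.1% were higher and 58.1% had a value below 0, with a median log2 fold change of -0.05. Of the 47 regulators at that level, 17% were lower, 8.51% were higher and 72.3% had a value below 0, with a median of -0.11. The lower genes were Srsf1, Srsf2, Srsf3, Srsf4, Srsf6 and Srsf7 of the SR family, Ptbp2 and Rbfox2. The higher genes were Esrp2, Rbm47, Ptbp3 and Hnrnpul1. Differences were small: among the called regulators log2 fold changes ran from -0.39 to 0.37. The median log2 fold change was -0.11 over the tested regulators and -0.01 over all tested genes, and 37 of 53 regulators had a value below 0, beside 51.1% of all genes. The median of the regulators was -0.02 without WT replicate 1 and -0.15 without WT replicate 3. Every KO library lay below every WT library for 14 of the 53 regulators and above for 7. Over all tested genes these shares were 21.3% below and 20.6% above.

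**Figure D1:**
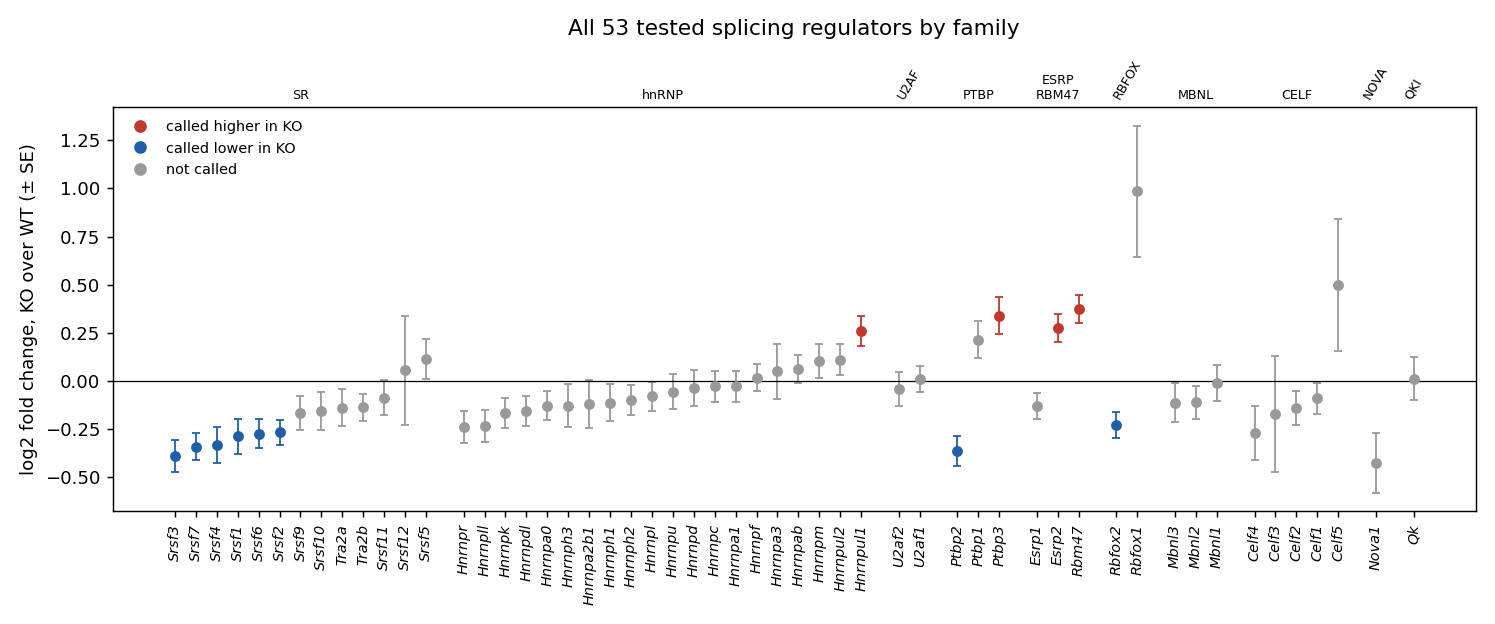
Log2 fold change of KO over WT (vertical axis, with standard errors as bars) for the 53 tested regulators, grouped by family along the horizontal axis. The 6 SR genes called lower sit between -0.39 and -0.27, while 19 of the 20 hnRNP genes were not called.

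SR genes carried most of the lower calls. Of the 13 SR family genes (11 Srsf genes, Tra2a and Tra2b), 6 were lower in KO, none was higher and 7 did not pass the test, a lower share of 46.2% beside 9.08% of all tested genes and 13% of those with a mean of at least 10 CPM. The median log2 fold change of the family was -0.17. SR proteins carry RNA-recognition motifs and a tail rich in arginine and serine, and several of them keep their own level in check through exons that trigger decay of their transcripts.

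Promoter sequence is shown for 4 of the genes called lower, and for Srsf5, an SR gene that was not called and had a value above 0. Each line is the 250 bases upstream of the transcription start, 5′ to 3′ on the strand of the gene, from RefSeq on build GRCm38.p6. Capitals mark matches on either strand to the GC box (GGGCGG), the CCAAT box (CCAAT), the ETS core (CCGGAAG), the TATA box (TATAAA), the E-box (CACGTG) or the half-site of the cyclic AMP response element (TGACG).
Srsf3, chr17:29032410-29032659, plus strand: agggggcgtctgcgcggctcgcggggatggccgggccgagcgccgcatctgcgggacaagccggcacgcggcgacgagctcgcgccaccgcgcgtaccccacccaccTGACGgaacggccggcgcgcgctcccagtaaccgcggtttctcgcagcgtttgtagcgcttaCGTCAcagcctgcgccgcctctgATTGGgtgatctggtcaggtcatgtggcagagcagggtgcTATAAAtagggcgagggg
Srsf7, chr17:80207306-80207555, minus strand: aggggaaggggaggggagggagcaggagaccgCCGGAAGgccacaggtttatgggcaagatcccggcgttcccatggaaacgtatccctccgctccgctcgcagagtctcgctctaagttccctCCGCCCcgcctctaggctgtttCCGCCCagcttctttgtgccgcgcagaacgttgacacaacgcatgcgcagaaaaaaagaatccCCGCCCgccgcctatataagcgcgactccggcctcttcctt
Srsf6, chr2:162931258-162931507, plus strand: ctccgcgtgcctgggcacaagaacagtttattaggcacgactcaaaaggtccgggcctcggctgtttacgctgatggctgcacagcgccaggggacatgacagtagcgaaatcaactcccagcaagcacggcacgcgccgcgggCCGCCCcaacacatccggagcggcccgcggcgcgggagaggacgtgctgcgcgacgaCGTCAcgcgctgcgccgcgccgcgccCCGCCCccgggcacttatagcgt
Srsf2, chr11:116853095-116853344, minus strand: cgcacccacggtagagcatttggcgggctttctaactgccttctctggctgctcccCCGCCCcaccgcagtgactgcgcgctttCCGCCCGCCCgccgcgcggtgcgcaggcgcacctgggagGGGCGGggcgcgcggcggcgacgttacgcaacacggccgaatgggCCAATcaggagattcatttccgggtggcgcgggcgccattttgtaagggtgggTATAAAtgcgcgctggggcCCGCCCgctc
Srsf5, chr12:80945249-80945498, plus strand: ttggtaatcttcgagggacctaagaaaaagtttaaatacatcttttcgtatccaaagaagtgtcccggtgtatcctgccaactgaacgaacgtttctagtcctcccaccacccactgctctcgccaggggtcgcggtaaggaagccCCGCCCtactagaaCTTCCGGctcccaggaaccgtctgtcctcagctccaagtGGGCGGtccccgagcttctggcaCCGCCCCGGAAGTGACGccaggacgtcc
Adjacent matches can share bases, as the GC box and ETS core nearest the start of Srsf5 do. RefSeq windows were found for 48 of the 56 regulators, with several starts for some genes. A GC box stood in 15 of the 16 windows of SR genes, and in 7 of the 8 windows of those called lower. It stood in 20 of the 27 windows of 18 hnRNP genes and in 55.4% of the 14167 windows of tested protein-coding genes. Srsf3 was the SR gene whose window had none. The ETS core was in 6 of the 16 SR windows, in 3 of the 8 windows of SR genes called lower and in 12.2% of all windows. The CCAAT box was in 4 of the SR windows, 17 of the hnRNP windows and 34.8% of all windows. SR windows held a median of 24 CpG dinucleotides, beside 15 over all windows. These are letter matches in CpG-rich sequence, and starts of 1 gene can overlap.

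Srsf3, the smallest SR protein and a regulator of alternative splicing and mRNA export, had the largest drop among the SR genes (ENSMUSG00000071172, mm10 chromosome 17, 29032628 to 29043373). Its level in CPM (read count scaled to a common library size with TMM factors) was 341, 291 and 325 in WT replicates 1 to 3 and 246, 260 and 226 in KO replicates 1 to 3. All KO libraries lay below all WT libraries. The means were 319 ± 25.4 CPM among WT and 244 ± 17.2 CPM among KO libraries (SD, n = 3), a log2 fold change of -0.39 ± 0.08 (SE) with an edgeR adjusted p of 0.00902. Throughout, ± is the SE after a log2 fold change and the SD over 3 libraries after a CPM mean.

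Srsf7, a close relative of Srsf3 with a zinc knuckle (ENSMUSG00000024097, chromosome 17, 80200080 to 80207307), stood at 156, 150 and 155 CPM among WT and 120, 128 and 116 CPM among KO libraries. Its WT libraries were tightly grouped and its KO libraries were all lower. The log2 fold change was -0.34 ± 0.07, with an adjusted p of 0.00631.

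Srsf4 was the least abundant of the 6, at 20.4, 17.8 and 18.4 CPM among WT and 14.9, 15.9 and 14.1 CPM among KO libraries. The groups did not overlap. Its log2 fold change was -0.33 ± 0.09 and its adjusted p 0.0264. Of its 3561 exonic bases, 1532 overlap the noncoding gene Gm12992 on the opposite strand. Srsf6, a long SR protein like SRSF4, measured 307, 271 and 281 CPM among WT and 244, 239 and 228 CPM among KO libraries. Again the KO libraries lay below all WT libraries, with a log2 fold change of -0.27 ± 0.07 and an adjusted p of 0.0249.

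Srsf2, the SR protein also known as SC35 and commonly used as a marker of nuclear speckles, was at 138, 141 and 143 CPM among WT and 120, 118 and 113 CPM among KO libraries. Here the spread within each group was smaller than the gap between them. The log2 fold change was -0.27 ± 0.07 and the adjusted p 0.0165. Exons of Srsf2 overlap those of Mettl23 and Mfsd11 on the opposite strand, and a strand setting for the counting is not given in the sources used here.

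Srsf1, the founding SR protein (ASF/SF2), was the most abundant of the 6 per kilobase of exon. Its libraries held 455, 400 and 363 CPM among WT and 341, 345 and 313 CPM among KO libraries. WT replicate 3 came within about the WT spread of the highest KO library, and the adjusted p was 0.0452 for a log2 fold change of -0.29 ± 0.09. With DESeq2's size factors the adjusted p was 0.0511, with upper-quartile factors 0.0682, and after a stricter expression filter (mean CPM from 1 upwards) it was 0.066. Its call held in 1 of the 6 fits without a library, the one without WT replicate 3, and without WT replicate 1 its log2 fold change was -0.19 (adjusted p = 0.0886).

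The other SR genes did not pass the test. Srsf5, the most abundant SR gene per kilobase of exon, was at 370, 298 and 309 CPM among WT and 401, 328 and 330 CPM among KO libraries. These groups overlapped, and replicate 1 was the highest library in both, with a log2 fold change of 0.12 ± 0.11 and an adjusted p of 0.453. Tra2b, which acts on exonic GAA-rich enhancers, was below WT in every KO library, 168, 165 and 163 CPM against 190, 184 and 170 CPM, with an adjusted p of 0.185. Srsf9, Srsf10, Srsf11 and Tra2a had log2 fold changes from -0.17 to -0.09 and adjusted p-values from 0.206 to 0.523. Srsf12 was near the limit of detection, at 0.228 to 0.386 CPM, and had an adjusted p of 0.909.

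Calls in the SR family rested on single libraries to differing degrees. Srsf3 was called in each of the 6 fits that left out a library, and Srsf7 in 5 of 6, the exception being without KO replicate 1 (adjusted p = 0.0512). Srsf4 and Srsf6 were called in 3 of 6, Srsf2 in 2 and Srsf1 in 1. Srsf1, Srsf2 and Srsf6 lost their calls without any 1 of the KO libraries, and Srsf4 without KO replicate 1 or 3 or WT replicate 1. The number of SR genes called lower was 1 without KO replicate 1, 3 without KO replicate 2, 2 without KO replicate 3, while dropping WT replicate 1 or 2 left 4 each and dropping WT replicate 3 gave 7. No SR gene was called higher in any of these fits. Lower calls over all tested genes also fell, from 1596 in the main fit to 455, 1044 and 612 without KO replicates 1, 2 and 3. They were 1624, 1003 and 1511 without WT replicates 1, 2 and 3. WT replicate 1 was the highest WT library for 10 of the 13 SR genes and for 35 of the 53 regulators, beside 38.3% of all tested genes. Without it the median log2 fold change of the SR genes was -0.19.

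**Figure D2:**
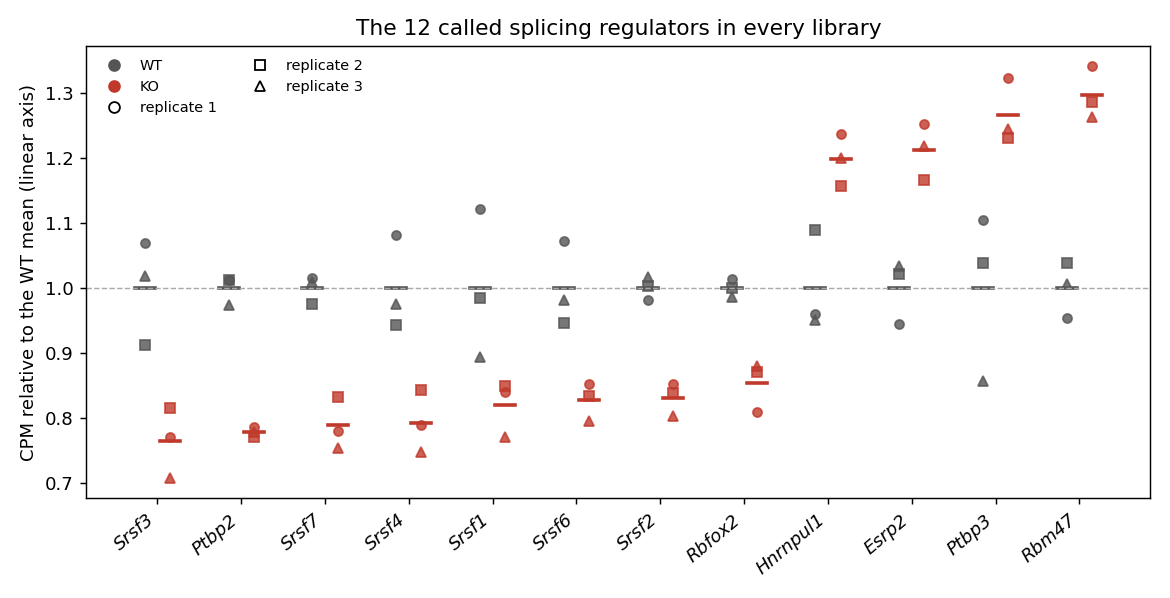
CPM of the 12 called regulators in every library, divided by the WT mean of the gene (vertical axis, linear); marker shape gives the replicate and short bars the group means. For all 12 genes the 3 KO libraries lie on one side of the 3 WT libraries, as for Srsf3 (226 to 260 CPM in KO against 291 to 341 CPM in WT).

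Among the 20 hnRNP genes 1 was higher in KO and none lower, leaving 19 that missed the threshold. The called share of 5% lay below the 21% of all tested genes. Log2 fold changes of the family ran from -0.24 to 0.26, with a median of -0.07. The hnRNP proteins coat nascent transcripts and are among the most abundant nuclear RNA-binding proteins.

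Hnrnpul1, a nuclear scaffold-like protein with roles in RNA processing and the DNA damage response, was the member called higher (ENSMUSG00000040725, chromosome 7, 25721165 to 25754757). It stood at 228, 259 and 226 CPM among WT and 294, 275 and 285 CPM among KO libraries. No KO library fell within the WT range. The log2 fold change was 0.26 ± 0.08 and the adjusted p 0.0346. The call ended without any 1 of KO replicates 1, 2 and 3 or WT replicate 3, and over all 16 alternatives its log2 fold change stayed between 0.23 and 0.33. Its paralog Hnrnpul2 was at 297 ± 27.7 CPM among WT and 321 ± 3.52 CPM among KO libraries, with an adjusted p of 0.345.

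Hnrnpa1, the most abundant regulator per kilobase of exon, did not pass the test. It measured 1075, 1096 and 965 CPM among WT and 1048, 1053 and 975 CPM among KO libraries, and the 2 ranges overlapped almost fully. The log2 fold change was -0.03 ± 0.08, with an adjusted p of 0.84. Hnrnpa1 and several other hnRNP genes have processed pseudogenes, and how reads were shared with these copies is uncertain.

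Hnrnpl, whose protein binds CA-rich RNA, was at 282, 286 and 306 CPM among WT and 272, 293 and 263 CPM among KO libraries. The ranges overlapped, and the log2 fold change was -0.08 ± 0.07 with an adjusted p of 0.474. Its relative Hnrnpll, known for its part in Cd45 splicing in lymphocytes, was at 131, 122 and 108 CPM among WT and 104, 105 and 96.9 CPM among KO libraries. All KO libraries were lower, but the adjusted p of 0.0637 missed the threshold.

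Hnrnpr (log2 fold change -0.24 ± 0.08, adjusted p = 0.0618) and Hnrnpk (-0.17 ± 0.08, adjusted p = 0.141) also had every KO library below every WT library without passing the test. Without WT replicate 3, Hnrnpll and Hnrnpr were called lower. That library stood apart in this family: it was the lowest of the WT libraries for 17 of the 20 hnRNP genes and for 35.5% of all tested genes. Hnrnpa3 shows the size of it, with 1253, 1154 and 787 CPM in WT against 1160, 1080 and 1067 CPM in KO, and so does Hnrnpa2b1, with 1447, 1281 and 977 CPM in WT against 1145, 1171 and 1096 CPM in KO. The median coefficient of variation over the hnRNP genes was 8.83% in WT and 4.63% in KO, beside 7.86% and 4.81% over the 9039 tested genes with a mean of at least 10 CPM. The part of WT replicate 3 in the hnRNP values was not tested beyond leaving it out.

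The U2AF subunits, which recognise the 3′ splice site at the start of spliceosome assembly, did not differ beyond their spread. U2af1, the small subunit that reads the AG dinucleotide, was at 127, 133 and 132 CPM among WT and 138, 127 and 130 CPM among KO libraries (log2 fold change 0.01 ± 0.07, adjusted p = 0.924). U2af2, the large subunit that binds the polypyrimidine tract, was at 217, 265 and 273 CPM among WT and 246, 243 and 244 CPM among KO libraries (log2 fold change -0.04 ± 0.09, adjusted p = 0.773). The groups overlapped for both genes.

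PTBP proteins bind pyrimidine-rich RNA and mostly repress exons. Of the 3 paralogs 2 were called (66.7%, beside 21% of all tested genes), in opposite directions. Ptbp2, the paralog best known from neurons, was lower in KO (ENSMUSG00000028134, chromosome 3, 119718742 to 119784466). Its libraries held 29.0, 29.0 and 27.9 CPM among WT and 22.5, 22.1 and 22.3 CPM among KO libraries. Both groups were tight, and they lay far apart relative to their spread. The log2 fold change was -0.36 ± 0.08 and the adjusted p 0.00779.

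Ptbp3 (ENSMUSG00000028382, chromosome 4, 59471868 to 59549364), first described in blood cells, was higher. It stood at 645, 606 and 500 CPM among WT and 772, 718 and 726 CPM among KO libraries. Every KO library exceeded every WT library, with a log2 fold change of 0.34 ± 0.10 and an adjusted p of 0.0298. Ptbp1, the general form, was at 383, 492 and 463 CPM among WT and 540, 497 and 518 CPM among KO libraries. Its KO libraries also lay above all WT libraries, by little over WT replicate 2, and its adjusted p was 0.128 for a log2 fold change of 0.21 ± 0.10.

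Compared per kilobase of exon, Ptbp1 exceeded Ptbp2 by 25.6, 32.8 and 32.2 times in the WT libraries and by 46.5, 43.6 and 45 times in the KO libraries. These ratios could not overlap between groups, since all KO libraries lay above WT for Ptbp1, which was not called, and below WT for Ptbp2. The ratio of Ptbp3 to Ptbp1, which both lay above WT in KO, did overlap, with means of 0.843 in WT and 0.903 in KO. PTBP1 is known to repress Ptbp2 through an exon whose skipping leads to transcript decay, and GENCODE M21 lists 2 decay-prone transcripts for Ptbp2. Ptbp2 was called in each of the 6 fits that left out a library. Ptbp3 was called in 1 of these 6, the one without WT replicate 1, and its log2 fold change over all alternatives ranged from 0.24 to 0.43.

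Of the 3 epithelial regulators 2 were called higher in KO (66.7%, beside 12% of all tested genes). The other, Esrp1, was not called and lay lower in every KO library. Rbm47, an RNA-binding protein known for epithelial splicing patterns and for its part in RNA editing by APOBEC1, had the smallest adjusted p of all regulators (ENSMUSG00000070780, chromosome 5, 66016549 to 66173118). It was at 41.8, 45.5 and 44.1 CPM among WT and 58.7, 56.3 and 55.3 CPM among KO libraries. The gap between groups was several times the spread within them. Its log2 fold change was 0.37 ± 0.07, with an adjusted p of 0.00544, and it was called in each of the 6 fits without a library. Of the 7163 exonic bases of Rbm47, 276 overlap Gm43323 on the same strand and 112 overlap Gm26725 on the opposite strand.

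Esrp2, an epithelial splicing regulator (ENSMUSG00000084128, chromosome 8, 106130319 to 106136974), was at 59.8, 64.7 and 65.5 CPM among WT and 79.3, 73.8 and 77.1 CPM among KO libraries. The groups did not overlap. Its log2 fold change was 0.28 ± 0.07 and its adjusted p 0.0204. The call ended without KO replicate 1 (adjusted p = 0.0854) and without KO replicate 3 (adjusted p = 0.0800). Exons of Esrp2 overlap those of Nfatc3 on the opposite strand, and reads there cannot be told apart if the counting ignored strand.

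Esrp1, its paralog and the more abundant of the pair per kilobase of exon, was at 185, 185 and 183 CPM among WT and 174, 172 and 160 CPM among KO libraries. All KO libraries were lower, but the log2 fold change of -0.13 ± 0.07 had an adjusted p of 0.188. Per kilobase of exon, Esrp1 exceeded Esrp2 by 2.13, 1.97 and 1.93 times in WT and by 1.51, 1.60 and 1.43 times in KO. These ratios restate the values of both genes, whose groups already lay apart in opposite directions, and Esrp1 was not called.

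In bulk RNA, more epithelial cells and more RNA of a gene per cell cannot be told apart. The 12 markers of tubule epithelium summed to 7829 to 9369 CPM in WT and 9418 to 9544 CPM in KO, with 3 of 12 called higher (25%, beside 12% of all genes) and none lower. Keratin 8 (Krt8) led the list at 2590 CPM, and none of the 12 had a mean below 1 CPM. The markers did not move together, although 10 had a log2 fold change above 0 and 2 below. Pax2 and Cldn4 were called higher, with log2 fold changes of 0.51 and 0.43 (edgeR adjusted p of 0.0198 and 0.0144). Krt8, Krt18, Krt19 and Pax8 had values from -0.001 to 0.03. Epcam was lower in every KO library, at 386, 364 and 379 CPM against 411, 445 and 409 CPM in WT (adjusted p = 0.125). Cdh16, whose promoter drives the Cre, was at 735 ± 22.4 CPM among WT and 884 ± 60.2 CPM among KO libraries (adjusted p = 0.0366). The part of cell composition in the Esrp2 and Rbm47 values was not tested.

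Rbfox2, the RBFOX paralog found in many tissues, binds GCAUG and is active in mesenchymal splicing programmes (ENSMUSG00000033565, chromosome 15, 77078990 to 77307004). It was at 85.5, 84.3 and 83.2 CPM among WT and 68.3, 73.5 and 74.2 CPM among KO libraries. No KO library reached the WT range. The log2 fold change was -0.23 ± 0.07 with an adjusted p of 0.0367. With the replicate number as a block the adjusted p was 0.0631, with upper-quartile factors it was 0.0628, and the call also ended without any 1 of the KO libraries or WT replicate 2.

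Qk, a STAR-family protein that promotes mesenchymal and muscle splicing patterns and circular RNA formation, was at 420, 385 and 296 CPM among WT and 388, 361 and 361 CPM among KO libraries. All KO libraries lay within the WT range, and the log2 fold change was 0.01 ± 0.11 with an adjusted p of 0.951. None of the 3 genes of MBNL proteins, known from myotonic dystrophy, passed the test. Mbnl1 was at 194, 181 and 150 CPM among WT and 181, 176 and 164 CPM among KO libraries (adjusted p = 0.954). Mbnl2 had a log2 fold change of -0.11 ± 0.09 (adjusted p = 0.378), and Mbnl3, on chromosome X, one of -0.11 ± 0.10 (adjusted p = 0.465).

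CELF proteins bind GU-rich RNA and often oppose MBNL proteins, and none of the 5 tested members was called. Celf1, the most abundant, was at 350, 334 and 299 CPM among WT and 302, 321 and 302 CPM among KO libraries, with an adjusted p of 0.444. Celf2 was at 51.3 ± 5.10 CPM among WT and 46.6 ± 2.09 CPM among KO libraries (adjusted p = 0.278). Celf4 was at 3.96 CPM on average in WT against 3.29 CPM in KO (adjusted p = 0.192). Celf3 and Celf5 were at 0.162 to 0.397 CPM in every library, so differences in them were not well measured at this depth.

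Other regulators known from neurons were low or near the limit of detection. Nova1, with 1318 reads in all, was at 3.10, 2.49 and 2.37 CPM among WT and 2.02, 2.09 and 1.82 CPM among KO libraries. All KO libraries were lower, and the log2 fold change of -0.42 ± 0.16 had an adjusted p of 0.0731. Rbfox1 was at 0.139, 0.0941 and 0.124 CPM among WT and 0.295, 0.200 and 0.214 CPM among KO libraries, from 100 reads in all, with a log2 fold change of 0.99 ± 0.34 and an adjusted p of 0.0594. Celf6, Rbfox3 and Nova2 had 4, 9 and 34 reads over the 6 libraries together and were not tested. Of 8 neuronal markers, 6 had a mean below 1 CPM and Snap25 had no read. Map2 at 22.7 CPM made up most of their sum, which was 20.1 to 25.7 CPM in WT and 23.7 to 26.8 CPM in KO. Of the 4 that were tested, 1 was called higher (25%, beside 12% of all genes). This was Nefm, with a log2 fold change of 1.67 (edgeR adjusted p = 0.0143) from 79 reads in all.

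Levels per kilobase of exon differed between regulators by orders of magnitude. Hnrnpa1 led at 328 CPM per kilobase over all libraries, followed by Hnrnpa3 at 201, Hnrnpa2b1 at 180, Hnrnpk at 140 and Hnrnpab at 125. Hnrnpa3 and Hnrnpa2b1 did not differ beyond the spread of their WT libraries. Ptbp1 (102) and Ptbp3 (88.4) stood with the leading hnRNP genes, and Srsf5 (85.1) and Srsf1 (64.7) led the SR family. The 6 SR genes called lower ranged from 64.7 (Srsf1) to 4.76 (Srsf4), so they were not a low-abundance subset. Among epithelial regulators Esrp1 (28.0) exceeded Esrp2 (16.1) and Rbm47 (7.02), and Qk stood at 25.9, Mbnl2 at 13.1 and Rbfox2 at 9.60. Celf2 at 1.89 was the last gene above 1, and 9 regulators lay below it.

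**Figure D3:**
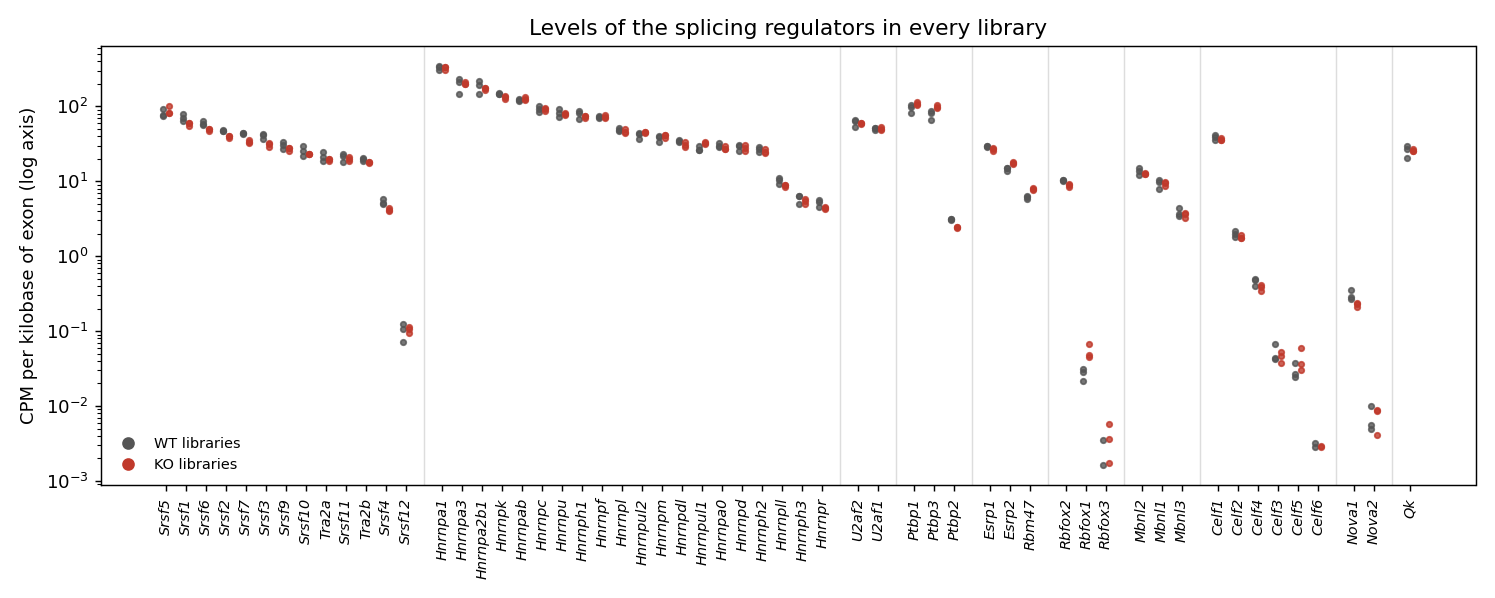
CPM per kilobase of exon (vertical axis, log scale) of all 56 regulators in each library, ordered by level within families; libraries with 0 reads are not drawn. Group differences are small beside the range between genes, from 0.002 (Celf6) to 328 (Hnrnpa1).

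A feature that the choice by symbol did not use is annotation of transcripts marked for nonsense-mediated decay, the pathway that removes RNA with early stop codons. Of the 56 regulators 30 had at least 1 such transcript in GENCODE M21, beside 20.8% of protein-coding genes in the count tables. That share includes genes with too few counts to test. Among tested genes, 29 of 53 regulators and 3846 of 14141 protein-coding genes had one. Among the SR family Srsf10 and Srsf12 were the members without one. Of the 29 tested regulators with such a transcript 7 were lower and 1 was higher in KO, and of the 24 without one 1 was lower and 3 were higher. The called shares of 27.6% with and 16.7% without lay on either side of the 21% of all tested genes. Among tested protein-coding genes the called shares ran in the opposite order, 21.3% with and 25.1% without. Over all tested protein-coding genes, 11.1% of the 3846 with such a transcript and 9.76% of the 10295 without one were lower. The median log2 fold changes of the regulators were -0.14 with and -0.02 without, and those of the protein-coding genes -0.04 and 0.01. All 6 called SR genes and Ptbp2 and Ptbp3 belong to the first set, and Esrp2, Rbm47, Hnrnpul1 and Rbfox2 to the second. The split therefore largely repeats the SR result, since the lower calls of the first set were these 6 SR genes and Ptbp2. Gene counts add decay-prone and productive transcripts together, so they do not show which of them differed.

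Other parts of the splicing machinery were examined as lists of 145 genes, of which 141 were tested. In KO, 13 were lower and 4 were higher, with a median log2 fold change of -0.06. The called share of 12.1% lay below the 21% of all tested genes, and the lower share of 9.22% was close to their 9.08%. Sm and Lsm proteins, which form rings on the small nuclear RNAs, had 5 of 15 lower (33.3%, beside 9.08% of all tested genes) and none higher. Snrpe, a ring subunit, was at 66.8, 60 and 79.8 CPM among WT and 47.4, 49.9 and 45.5 CPM among KO libraries, with no overlap, a log2 fold change of -0.53 ± 0.10 and an adjusted p of 0.00442. Snrpg, its neighbour in the ring, was at 48.5 ± 5.31 CPM among WT and 33.0 ± 4.68 CPM among KO libraries (adjusted p = 0.00612).

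U2 snRNP proteins, which act at the branch point, had 2 of 14 lower and 1 higher, a called share of 21.4% beside 21% of all genes. Snrpb2 was at 57.7 ± 0.147 CPM among WT and 46.7 ± 0.668 CPM among KO libraries (adjusted p = 0.0105). Sf3b4 went the other way, with 57.1, 80.0 and 80.7 CPM among WT and 102, 93.1 and 107 CPM among KO libraries (adjusted p = 0.0184). Calls of both genes ended without KO replicate 1 (adjusted p of 0.0599 for Snrpb2 and 0.0659 for Sf3b4) and without KO replicate 3 (0.0524 and 0.0786). Luc7l, a U1 snRNP-associated protein that influences 5′ splice site choice, was at 88.1, 88.5 and 88.2 CPM among WT and 63.2, 67.9 and 69.4 CPM among KO libraries. These WT libraries were nearly equal and all KO libraries were lower, with a log2 fold change of -0.40 ± 0.07 and an adjusted p of 0.00268. It was the 1 call among 12 tested U1 and early factors (8.33%, beside 21% of all tested genes).

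In the Prp19 complex and catalytic factors 2 of 18 were lower (11.1%, beside 9.08% of all genes), Prpf18 (54.0 ± 1.79 CPM among WT, 44.1 ± 2.52 CPM among KO libraries, adjusted p = 0.0209) and Isy1 (log2 fold change -0.35 ± 0.09, adjusted p = 0.0224). Both calls ended without KO replicate 1 (adjusted p of 0.0761 for Prpf18 and 0.114 for Isy1) and without KO replicate 3 (0.0992 and 0.0805), and that of Isy1 also without WT replicate 3 (0.0538). None of the 15 tri-snRNP genes, 10 SR kinase and phosphatase genes or 14 tested SR-related genes passed edgeR's test, beside 21% of all genes. Unadjusted p-values of that test were below 0.05 in 1, 4 and 2 genes of these lists, and in 6379 of all 17571 tested genes. Srpk1, which phosphorylates SR proteins, was at 193 ± 12.5 CPM among WT and 198 ± 4.28 CPM among KO libraries (adjusted p = 0.77). Clk4, a nuclear SR kinase, had a log2 fold change of -0.25 ± 0.10 and an adjusted p of 0.095.

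Of 36 tested RNA-binding regulators outside the symbol rule, 3 were higher and 2 lower, a called share of 13.9% beside 21% of all genes. Khdrbs3, a relative of SAM68, was at 14.3, 14.3 and 12.8 CPM among WT and 21.1, 20.4 and 18.6 CPM among KO libraries, all KO libraries above WT, with a log2 fold change of 0.54 ± 0.09 and an adjusted p of 0.00256. Elavl2, a Hu protein known from neurons and germ cells, had a log2 fold change of 1.66 ± 0.36 (adjusted p = 0.00858) at 0.178 CPM among WT and 0.555 CPM among KO libraries, from 206 reads in all. Among 7 genes linked to reading of the histone mark 1 was called (14.3%, beside 21% of all genes). This was Mtf2, a Polycomb partner with a Tudor domain. It was lower, at 48.1, 39.8 and 37.2 CPM among WT and 32.4, 34.3 and 33.2 CPM among KO libraries (adjusted p = 0.0378). Its call held in 1 of the 6 fits without a library, the one without WT replicate 3, and its log2 fold change of -0.33 became -0.20 without WT replicate 1. Morf4l1 (MRG15), the reader tied to PTBP-dependent exons, was at 170 ± 15.3 CPM among WT and 186 ± 5.71 CPM among KO libraries (adjusted p = 0.268), and Psip1 was at 109 ± 13.6 and 104 ± 0.542 CPM (adjusted p = 0.62).

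**Figure D4:**
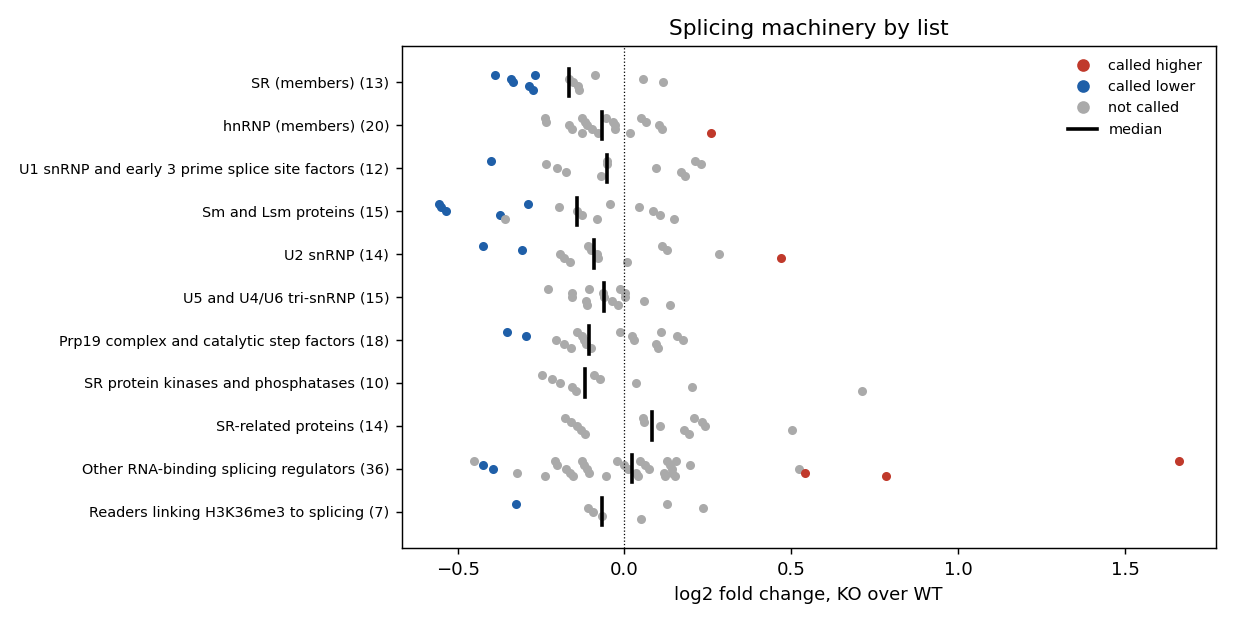
Log2 fold change of KO over WT (horizontal axis) for each tested gene of the SR and hnRNP families and of the other machinery lists, with the number tested in brackets and black bars at the medians. SR genes and Sm and Lsm genes hold 6 of 13 and 5 of 15 lower calls, beside 9.08% of all tested genes, with medians of -0.17 and -0.14.

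Several features of the libraries bear on all of these values. Library totals ran from 86078636 to 106974842 counts. Setd2 itself was at 168 ± 16.3 CPM among WT and 158.5 ± 4.86 CPM among KO libraries (adjusted p = 0.481), and since gene counts add all its exons they do not check the deletion. Xist, which coats the inactive X, stood at 507 and 606 CPM in KO replicates 2 and 3 and below 1 CPM in the other 4 libraries, so Xist level and genotype partly coincided. With a term for the Xist-high libraries, 6.62% of all genes and 1 of 53 regulators were called, namely Rbm47 (adjusted p = 0.0483). Log2 fold changes in that fit were -0.38 for Srsf3, -0.36 for Srsf7, -0.35 for Ptbp2 and 0.32 for Esrp2, with adjusted p-values of 0.124, 0.0861, 0.115 and 0.112. Others moved more: Rbfox2 went from -0.23 to -0.30, Srsf5 from 0.12 to 0.30 without being called, and the median of the SR genes from -0.17 to -0.23. That fit sets KO replicate 1 against WT and has fewer residual degrees of freedom. X-linked regulators were Hnrnph2 and Mbnl3, neither of which was called.

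Summed markers of 4 other cell types lay higher in every KO library than in every WT library. Their sums were 18.0 to 19.5 CPM in WT and 25.9 to 35.4 CPM in KO for 8 endothelial markers, and 19.1 to 29.2 against 29.6 to 49.1 CPM for 8 fibroblast and pericyte markers. For 7 podocyte markers they were 96.6 to 99.3 against 154 to 190 CPM, with Podxl leading at 109 CPM, and for 8 leukocyte markers 29.1 to 34.3 against 42.5 to 51.1 CPM. Called higher were 4 of 8 tested endothelial, 5 of 6 fibroblast and pericyte, 4 of 7 podocyte and 3 of 8 leukocyte markers, beside 12% of all genes, and none was lower. An exact two-sided permutation test of each of these 4 sums and of the tubule sum gave p = 0.1, the smallest that 3 against 3 libraries allow, and the neuronal sum gave p = 0.2. Adjusted over the 6 sums, the smallest p was 0.12. Their part in the regulators' values was not tested.

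**Figure D5:**
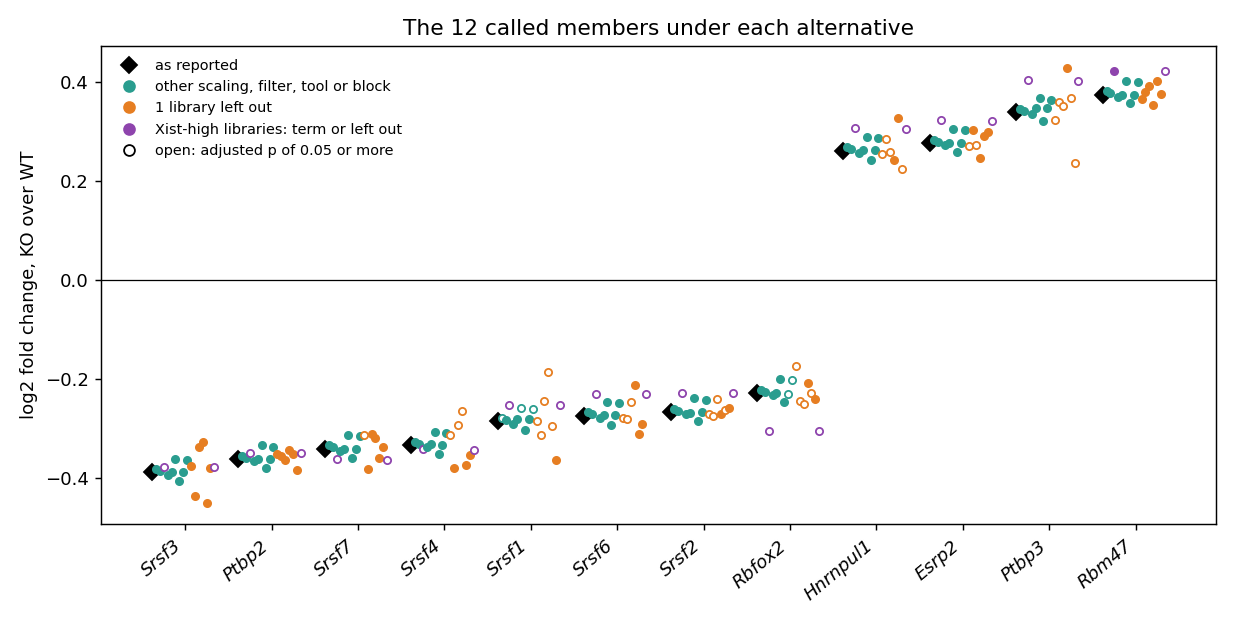
Log2 fold change of the 12 called regulators (vertical axis) as reported (black diamonds) and under each of 16 alternatives, with open symbols where the adjusted p was 0.05 or more. None of the 12 changed sign, and Rbm47, Srsf3 and Ptbp2 were the genes called in every fit that left out 1 library.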

How the data were processed

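Per the labels' protocols, RNeasy columns were used for total RNA and a TruSeq RNA kit for the libraries; how RNA was selected is not stated. The authors deposited whole-number read counts per Ensembl gene, 1 table per library, with no normalization. Trimmomatic 0.38, STAR 2.7.1a, HTSeq 0.11.2 and mm10 appear, per the submitters' processing notes, without their settings; annotation release and strand setting were not given in the sources used here. IDs were matched to GENCODE M21 (GRCm38, the assembly behind mm10), which covered 48144 of 48526 genes.

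The main test was that of edgeR 4.0.16 under R 4.3.3: filterByExpr at default settings (17571 genes kept), TMM factors, a quasi-likelihood fit on genotype alone, and Benjamini-Hochberg adjustment over all tested genes at 0.05. Standard errors were obtained by dividing the size of the log2 fold change by the root of the F statistic. CPM uses TMM-scaled library sizes, and level comparisons between genes divide CPM by the merged exon length. At 86078636 to 106974842 counts per library, genes under about 1 CPM are also limited by counting. The steps were tested on simulated data, and replicates differed by more than sampling noise.

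Members and lists were chosen with earlier results of these data known. Named genes were Setd2, every member past the threshold, the most abundant member of each family per kilobase, 10 members listed whatever their result, and up to 2 called genes from each machinery list. Others named (the remaining members, Clk4, Srpk1, Morf4l1 and Psip1) and the promoters shown were picked after values were seen. Alternatives were a replicate block, DESeq2 1.42.0 (its size factors alone and its test), library totals, upper-quartile factors, 2 other filters, limma-voom (limma 3.58.1) and leaving out each library. An added term marking the Xist-high libraries (over 10 CPM), and a fit that leaves them out, were chosen after seeing the data. Figures were drawn with matplotlib 3.10.9.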

Additional observations from a re-analysis of the deposited data

How the results depend on the processing

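None of the 12 called regulators changed sign under any of the 16 alternatives. Other scalings, filters and tools gave 10 to 14 called regulators: 12 with DESeq2, limma-voom or library totals, 11 with DESeq2's size factors or a mean of at least 1 CPM, 10 with upper-quartile factors and 14 with no filter beyond a total count of 1, which also called 26 genes of the other machinery lists in place of 17. With the Xist term, calls over all genes were 1163 (878 higher, 285 lower), with 1 regulator called (1 higher, 0 lower), 0 SR genes lower and 3 genes of the machinery lists. Without the Xist-high libraries they were 907 (728 higher, 179 lower), with 0 regulators (0 higher, 0 lower), 0 SR genes lower and 2 machinery genes; KO replicate 1 is then alone and is assumed to vary like WT. Both fits use fewer degrees of freedom or samples, and any other cause was not tested.

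Leaving out 1 library at a time gave 1683 to 3766 calls over all genes (1228 to 2142 higher, 455 to 1624 lower), 3 to 13 regulators (1 to 4 higher, 2 to 11 lower), 1 to 7 SR genes lower, 0 higher, and 7 to 22 machinery genes. The lowest number of regulators came without KO replicate 1, when 9.36% of all genes were called, and the highest without WT replicate 3. Depth limits Celf3, Celf5, Celf6, Nova2, Rbfox1, Rbfox3 and Srsf12, all under 1 CPM.

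WT and KO libraries share replicate numbers, and the labels do not say whether equal numbers pair cultures. Deviations of same-numbered libraries correlated at 0.04, -0.15 and 0.03, and those of differently numbered libraries at -0.11 to 0.10. With 3 libraries per group these values cannot decide whether the numbers pair them. With the replicate number as a block, 3594 genes (2139 higher, 1455 lower), 11 regulators (4 higher, 7 lower), 6 SR genes and 19 machinery genes were called, and Rbfox2 was the regulator that lost its call.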
